A study of Homo sapiens with 30 samples.

Results

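The probes described here are the array probes whose ratio of bone morphogenetic protein 4 (BMP4) over vehicle ran parallel to that of the NEUROG3 probe. They were chosen by the ratios themselves: a probe was a member if it had a value on every array and its log2 ratio had a Pearson correlation of 0.8 or more, over 30 arrays, with the NEUROG3 probe A_23_P35534. The rule found 652 of the 35699 probes with no gap, or 1.83%, out of 40997 probes in the table. Because the ratios selected the members, the ratios are given as a description and were not tested.

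The arrays came from 5 established breast cancer cell lines of human origin, namely MDA-MB-361, HCC1419, ZR-75-30, HCC1954 and SK-BR-3. Each line was given recombinant human BMP4 or the vehicle for 30 min, 1, 3, 6, 12 or 24 h, and each of the 30 combinations of line and time point was hybridised to 1 2-colour array. BMP4-treated RNA carried Cy5 and vehicle RNA carried Cy3, so a positive log2 ratio means more signal after BMP4. Cells of triplicate treatments were pooled, so that a combination has 1 array and no replicate of its own, and the SDs below are over the 6 time points of a line or the 5 lines of a time point. The dyes were not swapped. Of the 16 probes for luminal breast epithelium markers, 14 were well above background on more than 15 arrays, against 1 of 9 for fibroblast, 1 of 6 for endothelium, 3 of 8 for neuron and 4 of 7 for leukocyte markers. None of these marker lists held a member, and at a share of 1.83% over all probes such short lists would hold few or none.

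NEUROG3 encodes a proneural basic helix-loop-helix (bHLH) transcription factor, best known for committing pancreatic progenitors to the endocrine fate and for a role in enteroendocrine cells of the gut. Factors of this family bind DNA as dimers with a ubiquitous partner at E-boxes, and the inhibitory ID proteins, which are classical targets of BMP signalling, sequester that partner. A 2-colour array reports the ratio of the 2 RNAs at each probe, and a probe's brightness depends on the probe as well as on its transcript, so brightness is not compared between probes as a level of RNA.

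The NEUROG3 probe lies on chromosome 10 from 71001813 to 71001872 (hg18), minus strand, and was well above background in the vehicle channel on all 30 arrays. In MDA-MB-361 its log2 ratio was 0.76, 0.82, 0.39, 2.01, 2.68 and 2.01 from 30 min to 24 h, positive on 6 of 6 arrays. In HCC1419 it was −0.89, −1.72, −2.45, −1.11, −1.21 and −0.33, negative on 6 of 6. These 2 lines did not overlap. In SK-BR-3 the values were −2.20, 1.15, −0.15, −0.70, −2.08 and 0.46, so that the sign turned between 30 min and 1 h and again later. ZR-75-30 gave −1.06, 0.96, 0.39, −0.15, 1.30 and 0.70. HCC1954 stayed closest to 0, with 0.07, −0.56, 0.00, −0.59, 0.46 and −0.49. The line means were 1.44 ± 0.91 (SD, n = 6) in MDA-MB-361, 0.36 ± 0.85 in ZR-75-30, −0.18 ± 0.43 in HCC1954, −0.59 ± 1.35 in SK-BR-3 and −1.29 ± 0.73 in HCC1419. Neighbours in this order differed by less than the larger of their SDs, except MDA-MB-361 and ZR-75-30. For scale, probes spotted 10 times on each array had a median SD over their spots of 0.0295 to 0.103 on the log2 scale, depending on the array.

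The 652 probes repeated this course at a smaller size. Their mean log2 ratio was 0.20, 0.38, 0.12, 0.69, 0.93 and 0.81 in MDA-MB-361 and −0.39, −0.76, −1.03, −0.57, −0.58 and −0.19 in HCC1419. SK-BR-3 showed the widest swing, with −1.16, 0.47, −0.07, −0.55, −1.30 and 0.19 over the 6 time points. In ZR-75-30 the mean was −0.64 at 30 min and between −0.05 and 0.66 later, and in HCC1954 it lay between −0.34 and 0.26. By line, the means were 0.52 ± 0.33, −0.59 ± 0.29, −0.40 ± 0.72, 0.16 ± 0.47 and −0.10 ± 0.25 for MDA-MB-361, HCC1419, SK-BR-3, ZR-75-30 and HCC1954. By time point, each over 5 lines, they ran from −0.38 ± 0.55 at 30 min to 0.12 ± 0.44 at 24 h, and every time point held lines of both signs. The line means spanned 1.11 and the time point means 0.50.

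**Figure D1:**
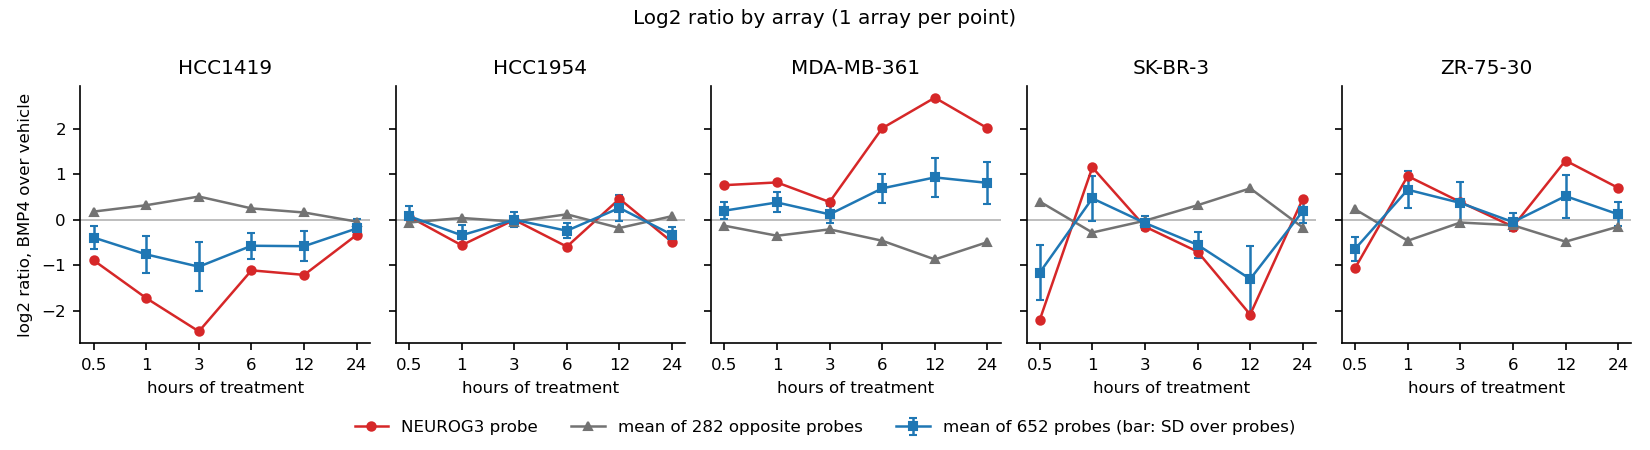
Log2 ratio of BMP4 over vehicle (vertical axis) against hours of treatment in each cell line, 1 array per point. Red circles show the NEUROG3 probe, blue squares the mean of the 652 probes with bars for the SD over probes, and grey triangles the mean of the 282 probes that ran opposite. All 6 MDA-MB-361 points of the NEUROG3 probe lie above 0 and all 6 HCC1419 points below it.

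Signs were shared across the set on many arrays. The ratios chose the members, so an excess over all probes in these counts follows in part from the rule. On the SK-BR-3 array at 30 min, 652 of 652 members were below 0, and on the HCC1419 array at 3 h 651 were. In MDA-MB-361, 650 were above 0 at 6 h and at 12 h. Among all probes with no gap, 45.5% to 51.7% were above 0 on an array. Of the members, 448 were above 0 on every MDA-MB-361 array and 505 below 0 on every HCC1419 array, and 336 (51.5%) were both, compared with 2.86% of all probes with no gap. At 2-fold or more, 383 members (58.7%) were lower in SK-BR-3 after 12 h, on an array where 4.94% of all probes with no gap were. After 30 min in the same line, 334 (51.2%) were lower, beside 2.32%. In HCC1419 after 3 h, 312 (47.9%) were lower, beside 1.60%, and in MDA-MB-361 after 12 h, 282 (43.3%) were higher, beside 2.57%. HCC1954 had 2 such values on its 6 arrays together.

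The slope of a member's ratio on that of NEUROG3 had a median of 0.46 and ranged from 0.10 to 1.00, the latter being NEUROG3 itself, and 294 probes exceeded 0.5. No member had a larger slope than NEUROG3. In all, 315 members (48.3%) had a ratio of at least 3-fold on 3 or more arrays or at least 2-fold on 4 or more, against 5.64% of all probes with no gap, while 211 never reached 2-fold on any array. The same ratios chose the members, so the contrast with all probes is not a separate result. The mean pairwise correlation among the members was 0.824, and 286 had r of 0.9 or more with NEUROG3 and 160 of 0.95 or more. Members just inside the threshold, with their r, included probes of MUC5AC (0.80101), FLJ22222 (0.80082), PPP1CA (0.80030) and SEMA4C (0.80026). Just outside were LRFN1 (0.79997), BCAM (0.79979), MPND (0.79976), EGLN2 (0.79965) and CDC42BPG (0.79875), so that the edge of the set separates like values.

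The 10 probes with the highest correlation had r between 0.981 and 0.986. The first was a probe of CKB, the brain-type creatine kinase, with r 0.986. Its log2 ratio was 0.10, 0.62, 0.23, 1.32, 1.75 and 1.36 in MDA-MB-361 and −0.62, −1.29, −1.88, −0.91, −1.08 and −0.34 in HCC1419. It followed in SK-BR-3 as well, with −1.83 at 30 min, 1.00 at 1 h and −2.02 at 12 h. DEAF1, a transcriptional regulator (r 0.983), had −1.44 in HCC1419 at 3 h and 1.75 in MDA-MB-361 at 12 h. CYP4F2, a cytochrome P450 that hydroxylates fatty acids and vitamin E (r 0.983), had −2.16 and 1.70 on the same arrays. CDH24 (r 0.982), a type II cadherin, had −1.96 and 1.54, FBXL17 (r 0.982), an F-box protein of a ubiquitin ligase, had −1.82 and 1.66, and SOX1 (r 0.981), a neural SOXB1 transcription factor, had −1.80 and 1.65. The other 4 carried the array names KIAA1856 and BC080624, or only the probe names A_32_P225647 and A_32_P61074. Each of the 10 was positive on 6 of 6 MDA-MB-361 arrays and negative on 6 of 6 HCC1419 arrays, as chosen.

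Among the bHLH genes of neural development, 5 of 34 probes with no gap, for 5 of 26 genes, were members, against 1.83% of all such probes. The 5 include NEUROG3 itself, which is a member by definition. The list was drawn up with results of these data known. Beside NEUROG3 they were NEUROG1, which specifies cranial sensory neurons (r 0.946), BHLHE23, named BHLHB4 on the array and active in retinal development (r 0.977), HES7, an oscillating repressor of the segmentation clock (r 0.958), and HES6, an inhibitor of HES1 (r 0.856). The mean ratio (log2) of NEUROG1 was 0.77 ± 0.50 (SD, n = 6) in MDA-MB-361 and −0.85 ± 0.47 in HCC1419, and BHLHE23 had 0.80 ± 0.51 and −0.83 ± 0.48. HES6 moved less, with 0.23 ± 0.34 and −0.65 ± 0.20. The probe of NEUROG2, the remaining neurogenin, was well above background in the vehicle channel on 0 arrays and had r −0.278. ATOH1, a proneural factor of other lineages, had r −0.042 and was well above background in that channel on 2 arrays. The 3 probes of HES1, a Notch target, had r −0.505, −0.104 and −0.021. The median r of the list was 0.038, beside 0.022 for all probes with no gap.

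Of the pancreatic endocrine list, 2 of 34 probes were members, against 1.83% of all probes with no gap. They were NEUROG3, a member by definition, and MAFA, a beta-cell transcription factor that activates insulin (chromosome 8, 144583577 to 144583636, r 0.918). MAFA had a mean log2 ratio of 0.58 ± 0.34 in MDA-MB-361 and −0.48 ± 0.36 in HCC1419. The list's median r was 0.092. None of the 23 probes for 17 BMP targets and feedback genes was a member, and their median r was 0.079. At a share of 1.83% over all probes, a list of this length would hold few or no members. ID1, a direct target, had r 0.021, and SMAD7 and SMAD6, the inhibitory SMADs, had r −0.360 and 0.393. BAMBI, a pseudoreceptor that dampens the pathway, had r −0.366. MSX1, a homeobox target of BMP, came closest at 0.745. None of the 37 housekeeping probes was a member either, with the same limit.

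Developmental transcription factors occurred elsewhere in the set. Of 28 SOX probes 6 were members (21.4%), of 66 FOX probes 6 (9.09%) and of 158 homeobox probes 11 (6.96%). The share over all probes with no gap was 1.83%. Of 8 ZIC probes and of 104 olfactory receptor probes 0 were members, where few or none would be expected at that share. The median r of the SOX (0.025), FOX (0.130) and homeobox (0.071) probes stayed near that of all probes. Examples, chosen after their values were seen, were SOX3 (r 0.975), SOX17 (0.960), FOXQ1 (0.965), FOXB1 (0.959), PHOX2A (0.967), POU3F3 (0.971), EN2 (0.953), LBX1 (0.953) and HOXA3 (0.951). Apart from FOXQ1, these act in the neural, endodermal, craniofacial or muscle lineages of the embryo. All of these 9 probes were well above background in the vehicle channel on 30 of 30 arrays. Other probes of some of these genes were not, and did not follow. Those of FOXQ1 (r −0.097), HOXA3 (r −0.403) and LBX1 (r 0.072) were well above background in that channel on 13, 12 and 1 arrays, and those of SOX3 are given below. Some bright second probes of other FOX and homeobox members did not follow either. FOXD1 had a member at 0.81 and another probe at −0.84, which is among the probes that ran opposite. IRX3 had 0.925 and −0.677, and IRX4 had 0.807 and −0.167. In that channel these second probes were well above background on 30, 30 and 29 arrays. The SOX8 probes were all members, as given below.

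The sequences upstream of 4 such genes are shown because their probes move together while the genes lie on 4 chromosomes. They run from 250 bases before to 50 after the annotated start, from RefSeq on GRCh38.p14, with each GGGCGG, the GC box bound by SP factors, in capitals on either strand (CCGCCC on the other).
NEUROG3 (chr10:69573373-69573672, minus strand): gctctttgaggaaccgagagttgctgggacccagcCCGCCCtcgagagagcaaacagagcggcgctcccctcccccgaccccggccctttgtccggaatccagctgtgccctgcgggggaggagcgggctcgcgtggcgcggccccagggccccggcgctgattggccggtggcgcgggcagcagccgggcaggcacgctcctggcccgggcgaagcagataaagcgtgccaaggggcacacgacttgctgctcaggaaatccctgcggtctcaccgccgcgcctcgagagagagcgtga
BHLHE23 (chr20:63006915-63007214, minus strand): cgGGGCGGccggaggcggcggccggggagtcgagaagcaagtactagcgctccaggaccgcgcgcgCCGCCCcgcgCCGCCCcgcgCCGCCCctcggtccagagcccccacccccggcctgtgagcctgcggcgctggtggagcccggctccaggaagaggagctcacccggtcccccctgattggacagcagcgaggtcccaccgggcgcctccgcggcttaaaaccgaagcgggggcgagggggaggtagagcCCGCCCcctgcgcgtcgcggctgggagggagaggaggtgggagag
SOX1 (chr13:112066899-112067198, plus strand): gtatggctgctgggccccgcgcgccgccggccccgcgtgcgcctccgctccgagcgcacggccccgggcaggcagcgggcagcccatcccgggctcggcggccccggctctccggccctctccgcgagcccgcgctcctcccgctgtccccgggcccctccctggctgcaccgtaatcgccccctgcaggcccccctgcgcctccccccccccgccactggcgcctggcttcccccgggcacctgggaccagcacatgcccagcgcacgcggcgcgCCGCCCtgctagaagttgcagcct
SOX3 (chrX:140505020-140505319, minus strand): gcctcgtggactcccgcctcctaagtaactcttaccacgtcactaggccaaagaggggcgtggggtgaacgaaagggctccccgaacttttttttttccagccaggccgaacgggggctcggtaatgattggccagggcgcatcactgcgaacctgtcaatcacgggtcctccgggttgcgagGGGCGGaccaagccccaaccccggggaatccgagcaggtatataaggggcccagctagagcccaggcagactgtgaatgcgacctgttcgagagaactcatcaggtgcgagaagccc
GGGCGG occurred once each in the windows of NEUROG3, SOX1 and SOX3 and 5 times in that of BHLHE23, and 45.0% of the 35116 RefSeq windows of this length hold it on either strand. The G and C content was 71.0% for NEUROG3, 76.7% for BHLHE23, 80% for SOX1 and 60.3% for SOX3, with 31, 38, 37 and 20 CpG, beside medians of 58.7% and 14. An E-box, CANNTG on either strand, was found in NEUROG3, SOX1 and SOX3 and in 68.7% of all windows. CCAAT was found in NEUROG3, BHLHE23 and SOX3 and in 34.6% of all, and TATAAA in none of the 4 and in 11.5% of all. Such matches describe letters only. The set as a whole was not compared, because only 301 of 652 members (46.2%) had a window, under the 80% required.

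Of the members, 389 (59.7%) carried a name that RefSeq holds, for 375 genes, and 263 did not, among them 63 named only by the probe and 47 by a THC transcript cluster. Among all probes with no gap 67.8% had such a name. The members were spread over the genome and the slide. Chromosome 19 held 79 and chromosome 16 held 62, which was 3.71% and 3.97% of the probes with no gap there, followed by 3.10% on chromosome 20 and 3.02% on 22. Chromosomes 13, 4 and X had 0.768%, 0.861% and 0.917%, and 8 members had no position. Only 3 pairs of members overlapped on the genome. Every member had 1 spot per array.

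The members were bright. All 652 were well above background in either channel on more than 15 arrays, against 73.3% of probes with no gap, and 615 (94.3%) were so on all 30, against 57.1%. The mean log2 signal of both channels had a median of 10.75 for members and 8.14 for all. When probes with no gap were ordered by signal and cut into 4 equal parts, members made up 0.0%, 0.852%, 2.38% and 4.08% from dimmest to brightest. No member spot was saturated. Brightness was not particular to the members. The 282 probes that ran opposite, chosen by the same measure with the sign turned, made up 0.0%, 0.482%, 1.42% and 1.25% of these parts. How far a threshold on correlation by itself favours bright probes was not tested.

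**Figure D2:**
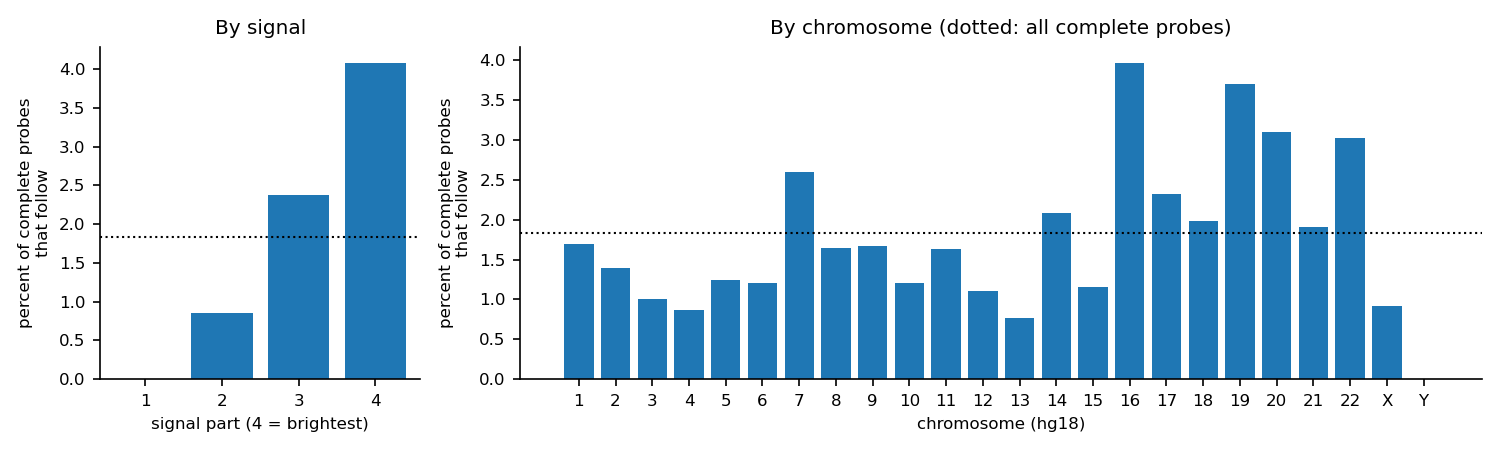
Percent of probes with no gap that were members (vertical axes), in 4 equal parts by mean log2 signal on the left (4 is the brightest) and by hg18 chromosome on the right; the dotted line marks 1.83%, the share over all. The share rises from 0.0% in the dimmest part to 4.08% in the brightest, and chromosomes 16 and 19 stand highest.

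The other probes of the same genes did not, on the whole, follow. Of the 375 genes, 150 had 1 probe and 225 had more, and in 5 of these 225 every probe was a member. The genes held 301 further probes with no gap, and their r with NEUROG3 had a median of 0.057 (quartiles −0.251 and 0.414), close to the 0.022 of all probes. The correlation was negative for 141 of the 301 (46.8%, beside 47.9% of all probes), and it was 0.5 or more for 64 (21.3%, beside 12.5%). Of the 301, 258 were well above background on more than 15 arrays, and these had a median r of 0.062. NEUROG3 itself had 1 probe on the array.

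**Figure D3:**
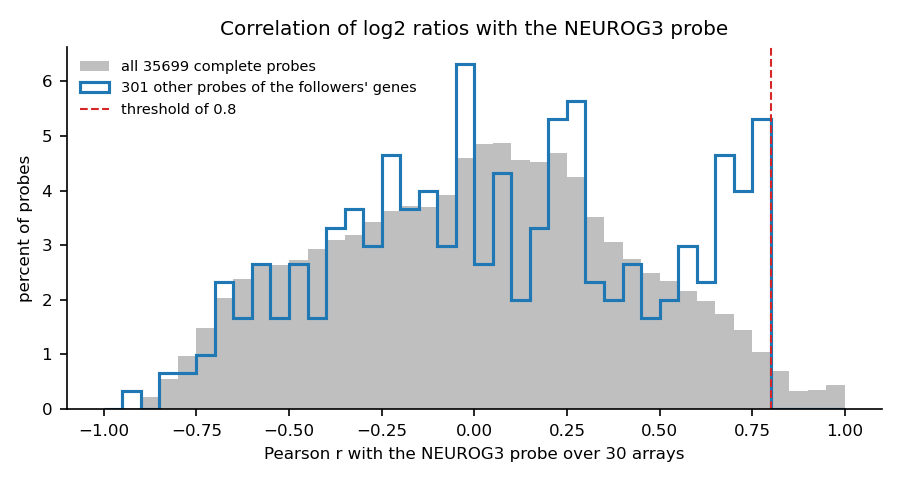
Distribution of the Pearson correlation with the NEUROG3 probe over 30 arrays (horizontal axis), as percent of probes. Grey bars are all 35699 probes with no gap, the blue outline is the 301 other probes of the members' genes, and the dashed line is the threshold of 0.8 that chose the members; the outline lies over the bars, with an excess between 0.6 and the threshold where it ends by construction.

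Individual genes varied in how far their other probes followed. The member probe of SOX1 (chromosome 13, 111770912 to 111770971) was well above background on 30 arrays in the vehicle channel, as all counts in this and the next paragraph are given, and the second SOX1 probe, further 3′, on 0. SOX3 had 1 member probe (r 0.975) and 2 others with r −0.135 and −0.035 that were well above background on 11 arrays and 1. CDH24 had a second probe with r −0.568 that was well above background on 30 arrays, and FBXL17 one with r −0.469. The second CKB probe had r 0.691. DEAF1 had 3 probes, at 0.983 at the 5′ side, 0.769 in the middle and 0.456 at the 3′ side.

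Genes with several member probes were few. One gene, DAD1, a subunit of the oligosaccharyltransferase that N-glycosylates proteins, had 3 members, with r 0.858, 0.825 and 0.813, and 12 genes had 2. The DAD1 probes moved little, with means of 0.12 ± 0.10 to 0.27 ± 0.10 in MDA-MB-361 and −0.22 ± 0.14 to −0.01 ± 0.08 in HCC1419. CYP4F2 had members at 0.983 and 0.967 that overlap on the genome, and another probe at −0.215 that was well above background on 6 arrays. GRIN1, a subunit of the NMDA glutamate receptor, had overlapping members at 0.954 and 0.884 and another probe at 0.084, well above background on 3 arrays. KRTAP2-4, a hair keratin-associated protein from a family of near-identical copies, had 2 members (0.966 and 0.894) and 3 other probes (0.357, 0.195 and 0.030). TNXB, an extracellular matrix protein with a near-identical pseudogene, had 2 members (0.956 and 0.829) and 2 others (0.094 and −0.179) that lie further 3′ on the genome. SOX8, a SOXE factor, had members at 0.940 and 0.844 and no other probe. LLGL2, a cell polarity protein, had 0.848 and 0.837, DCAF7 (WDR68 on the array), a scaffold of kinases, had 0.861 and 0.837 but also 0.515 and −0.189, SPSB3, an adaptor of a ubiquitin ligase, had 0.909 and 0.878 but also −0.136, and LOC407835 had 0.851 and 0.805.

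Where the member and another probe of its gene could be ordered on the genome, the member more often lay 5′. There were 293 such pairs in 206 genes, on the same chromosome and strand and within 1 Mb, a median of 3096 bases apart. The member was the 5′ probe in 221 (75.4%), a comparison chosen after seeing the data. In 149 genes the member was 5′ of every other probe and in 43 it was 3′ of every other. When the other probe was also bright, the share was 78.1% of 251 pairs. The other probe had a median r of −0.033 in the pairs where it lay 3′ and 0.281 in the 72 where it lay 5′. Among 10509 pairs of probes of 1 gene without any member, the one with the higher r was the 5′ one in 58.9%. The pairs share genes and probes, and no test was made. Strand was read from the order of each probe's coordinates, which matched the RefSeq strand for 99.1% of 19260 probes.

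**Figure D4:**
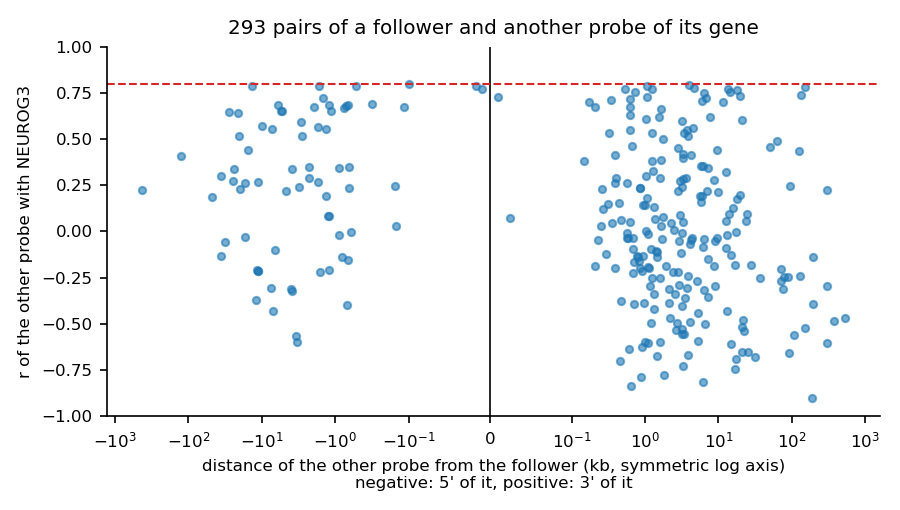
Each point is 1 of 293 pairs of a member and another probe of its gene. The horizontal axis is the distance of the other probe from the member in kb on a symmetric log axis. It is negative where the other probe lies 5′ and positive where it lies 3′. The vertical axis is the other probe's correlation with NEUROG3. On the 3′ side lie 221 points, and all points lie below the dashed threshold of 0.8 by construction.

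Both channels moved. The log2 signal of the NEUROG3 probe, after quantile normalization over arrays and channels, was 10.14, 8.69, 12.96, 13.56, 14.28 and 13.43 in the vehicle channel of SK-BR-3 from 30 min to 24 h, and 8.47, 9.67, 12.81, 12.95, 12.52 and 13.91 in the BMP4 channel. Both channels were low at the first 2 time points and high at the later 4. In HCC1954 it was lowest at 6 h (10.59) and highest at 12 h (13.36) with vehicle, and 10.05 and 13.82 with BMP4. In MDA-MB-361 the vehicle channel kept between 8.90 and 9.82 while the BMP4 channel went from 9.58 at 30 min to 11.46 at 12 h. In HCC1419 the vehicle channel was above the BMP4 channel on 6 of 6 arrays, with 9.70 and 9.03 at 30 min and 12.47 and 11.37 at 6 h.

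Over the 631 members with a signal on every array, the SD over the 6 time points of a line had a median between 0.20 (MDA-MB-361) and 1.01 (SK-BR-3) in the vehicle channel, and between 0.30 and 0.87, again for these lines, in the BMP4 channel. For all probes with no gap these medians lay between 0.12 and 0.22. Averaged over lines, the BMP4 SD was 1.06 times the vehicle SD for the median member. With HCC1954 left out it was 1.00 and with SK-BR-3 left out 1.14. Over arrays, the mean of both channels of a member correlated with that of NEUROG3 with a median r of 0.773 (quartiles 0.532 and 0.874), compared with −0.010 for all probes with no gap, and 279 members (44.3%) reached 0.8, against 1.36% of all. In the vehicle channel alone the medians were 0.780 and −0.003. These correlations are over the same 30 arrays, and they share lines, slides and scan days. The vehicle signal is also a term of the ratio that chose the members, so its correlation is not independent of the rule. The values for all probes include dim probes, which the members do not.

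**Figure D5:**
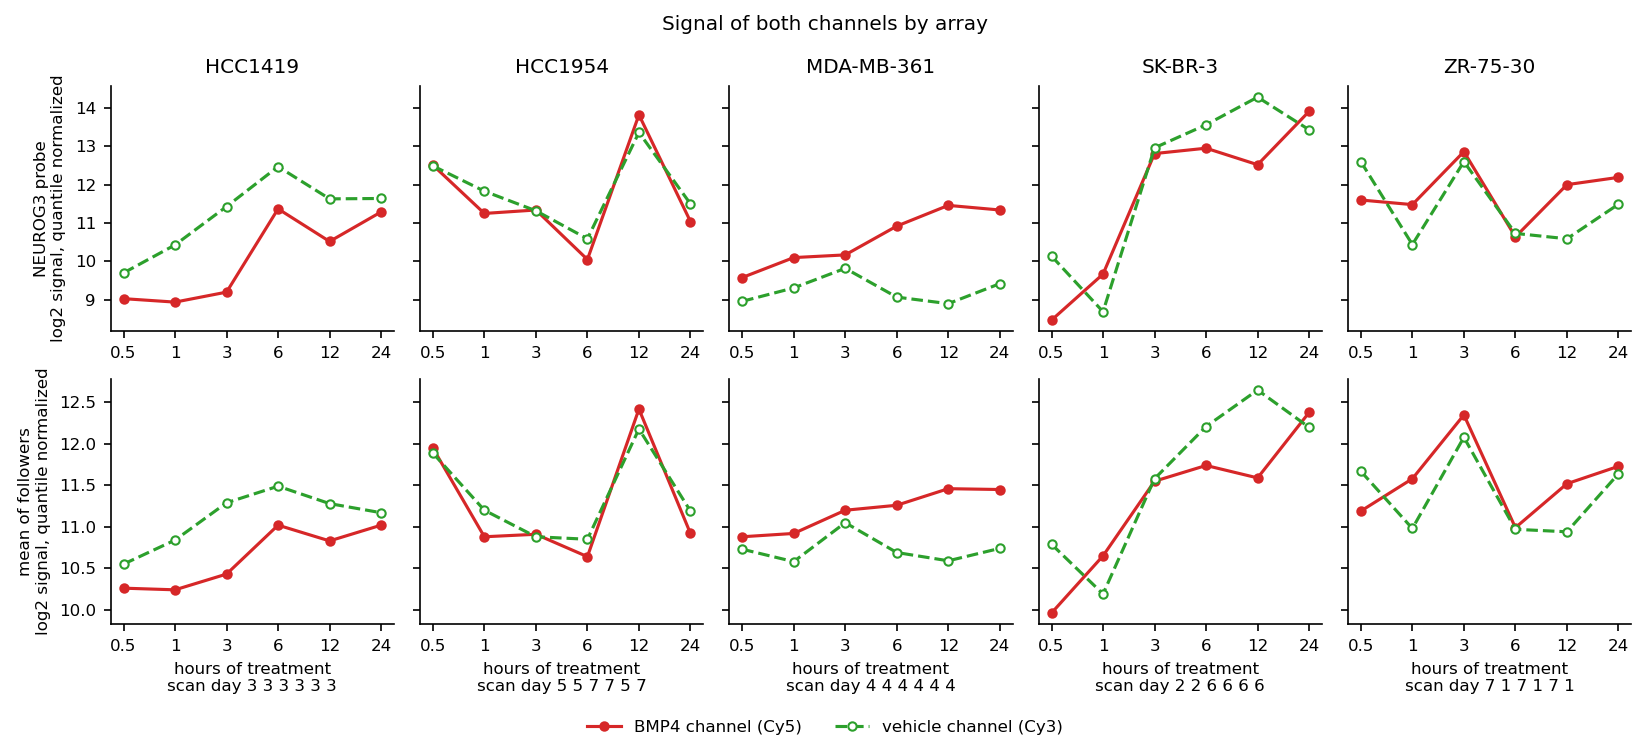
Log2 signal after quantile normalization (vertical axis) of the BMP4 channel (red, filled) and the vehicle channel (green, open) against hours of treatment, for the NEUROG3 probe in the upper row and the mean of 631 members in the lower row, 1 array per point; the numbers of the scan days stand under each panel. In SK-BR-3 both channels of NEUROG3 lie below 10.2 at 30 min and 1 h and above 12.5 from 3 h on.

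The mean level of both channels did not enter the rule and was tested, although all members were bright, which many other probes were not. Between cell lines, 374 of 652 members (57.4%) differed in level (limma's moderated F test, adjusted p under 0.05), while 73.5% of all 40997 probes did. With only probes well above background on more than 15 arrays in the fit, 400 members (61.3%) differed, beside 92.3% of 26613 probes. The members' line means lay further apart, with a median range of 1.15 on the log2 scale against 0.79 for all probes, and the residual SD was 0.58 against 0.19. Both values for all probes include dim probes, which the members do not. NEUROG3 had mean levels of 11.95 ± 2.11 (SD, n = 6) in SK-BR-3, 11.76 ± 1.13 in HCC1954, 11.61 ± 0.76 in ZR-75-30, 10.65 ± 1.01 in HCC1419 and 9.91 ± 0.39 in MDA-MB-361 (limma, adjusted p 0.022). The first 3 lines lay within the spread of each other. The 6 arrays of a line are its time points and not replicate cultures, and scan day was not in this fit. MDA-MB-361 had the highest mean ratio and the lowest mean level of the 5 lines. Levels of the members as a set were highest in ZR-75-30 (11.50 ± 0.44) and SK-BR-3 (11.48 ± 0.88) and lowest in HCC1419 (10.88 ± 0.34). In ZR-75-30, 256 members (39.3%) had their highest line mean, beside 14.1% of all probes with no gap, and in HCC1419 322 (49.4%) had their lowest, beside 19.7%. The members' levels moved together, so these counts are not separate results.

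Over time, 2 of 652 members (0.307%) changed in level, compared with 0.963% of all 40999 probes tested (limma's moderated F test with the line as a block, adjusted p under 0.05), and 83 members (12.7%) had an unadjusted p under 0.05, beside 13.6% of all probes. The 2 were probes of DCAF7 (adjusted p 0.025) and DAD1 (adjusted p 0.0391), and neither call held in every setting. For NEUROG3 the adjusted p was 0.516, with a mean level of 10.22 ± 1.35 (SD, n = 5) at 1 h and 11.91 ± 1.52 at 12 h. The highest mean fell at 12 h for 451 members (69.2%, beside 13.9% of all probes with no gap) and the lowest at 1 h for 519 (79.6%, beside 23.7%). The members' levels moved together, so these counts describe a shared pattern of a few arrays and not separate results. In SK-BR-3 the 1 h array was scanned on day 2 and the 12 h array on day 6.

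Levels differed between scan days within SK-BR-3, and in part within HCC1954. The 2 SK-BR-3 arrays of scan day 2 had NEUROG3 levels of 9.17 and 9.31 and the 4 of day 6 had 12.88 to 13.67, and the members' mean level was 10.38 to 10.42 and 11.58 to 12.33. In HCC1954 the 3 arrays of day 5 had 11.54 to 13.59 and the 3 of day 7 had 10.32 to 11.33, while the members' mean levels overlapped (11.04 to 12.34 and 10.76 to 11.08). In ZR-75-30 the 3 arrays of day 7 had 11.30 to 12.73 and the 3 of day 1 had 10.69 to 11.83, which overlapped, as did the members' mean levels. In SK-BR-3 scan day and time point cannot be told apart, since day 2 holds 30 min and 1 h and day 6 the later points. With scan day as a random block, 224 members (34.4%) differed in level between lines, beside 57.4% of all probes. The ratios did not separate by day in that way. The members' mean was −1.16 and 0.47 on the 2 SK-BR-3 arrays of day 2, and on day 7, the only day with 2 lines, it was −0.19 ± 0.17 (SD, n = 3) for HCC1954 and 0.08 ± 0.63 for ZR-75-30. HCC1419 was scanned wholly on day 3 and MDA-MB-361 on day 4, so that line and day cannot be told apart for the 2 lines whose sign was fixed. Over 30 arrays the members' mean had a Pearson r of −0.39 (Spearman −0.38) with the slope of the spike-in controls, 0.02 within lines, and 0.12 (0.42 within lines) with the dye normalization factor. The part of these readouts in the ratios was not tested.

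As many as 282 probes ran opposite, with r of −0.8 or less. Their mean log2 ratio was −0.42 ± 0.26 (SD, n = 6) in MDA-MB-361, 0.23 ± 0.18 in HCC1419 and 0.16 ± 0.38 in SK-BR-3, smaller than the members' mean. The 5 lowest were A_24_P230116 (r −0.920), C9orf41 (−0.910), GTF2I, a general transcription factor (−0.910), ANGEL2 (−0.909) and PIP5K2B, a phosphoinositide kinase (−0.905). They too were bright, all 282 being well above background on more than 15 arrays.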

How the data were processed

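Total RNA of 5 breast cancer cell lines at 6 time points was measured on 30 2-colour Agilent arrays. The authors scanned the slides and extracted signals with Agilent Feature Extraction, version 9.5.1.1 per the file headers, on build hg18 (NCBI36). The deposited mean, background and processed signals are intensity values, and the deposited log ratio of the software is log10. The authors' series matrix gives log2 ratios of probes, centred on a median of 0 on each array, and its columns matched the ratio of the processed signals (lowest r 0.9999). Of its 40997 probes, 35699 had no missing value. The members were taken from it with Python 3.11.15, and the lists and members were chosen with earlier results of these data known.

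For levels, spots were corrected by normexp (offset 50), loess-normalized within arrays (control spots left out) and averaged per probe, spots marked as outliers were set to missing, and the mean level A was quantile normalized with limma 3.58.1. lmFit and eBayes were fitted over all probes, with line and time point in the model and Benjamini-Hochberg adjustment. The fit was tested on simulated data. Replicate numbers 1 to 5 are the 5 lines, in alphabetical order, and the same line pairs arrays across time points. A probe was bright if well above background in either channel on more than 15 arrays, and 56.3% to 70.8% of probes were well above background per channel and array. The number of arrays limits the precision. Named were the NEUROG3 probe, the 10 next by r, 5 on each side of the threshold, members in the bHLH, pancreatic and BMP lists, up to 10 genes with 2 or more members, and the 5 lowest r. Of the 5 members just inside the threshold, 1 is not reported here. The samples come from pooled cultures, so p-values measure the spread between these arrays.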

Additional observations from a re-analysis of the deposited data

Results flagged for a closer look

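At 3 h, the NEUROG3 log2 ratio in HCC1419 (−2.45) stood apart from the other 4 lines, which lay between −0.15 and 0.39. It was 1 of 44 sets of arrays examined in this way, and chance marks about 1 in 20. The mean log2 ratio of the members was negative on every HCC1419 array (mean −0.59) and positive on every MDA-MB-361 array (mean 0.52). This difference was not tested, since the ratios chose the members.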

How the results depend on the processing

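The number of members was 1545 at a threshold of 0.7, 286 at 0.9 and 397 when each line's mean was subtracted, 386 of them among the 652. It lay between 480 and 1466 when 1 line was left out, with the highest value without ZR-75-30. Spearman correlation (712), up to 3 missing values (654), the software's log ratio (664) and own loess ratios (643) stayed within 1.5 times. The mean ratio of each line kept its sign with the software's and the loess ratios. The other probes' median r was 0.083 within lines and 0.049 to 0.081 with 1 line left out. The BMP4 over vehicle SD ratio was 1.0 to 1.14 with 1 line left out. The 5′ share, chosen after seeing the data like both its alternatives, was 78.1% in pairs of bright probes and 78.1% in members chosen on loess ratios. Members that differed in level between lines numbered 276 to 459 with 1 line left out (42.3% to 70.4%, beside 65.8% to 71.7% of all probes), and 224 (34.4%, beside 57.4%) with scan day as a random block, chosen after seeing the data. Members that changed over time, 2 with the line as a block, numbered 0 with no replicate block (0 of all probes), 0 with scan day in place of the line (18), 2 with scan day as a random block beside the line (472, also chosen after seeing the data), 0 with 75th percentile scaling (3), 1 with processed signals (174), 1 among bright probes (381), and 0 to 3 with 1 line left out (0 without HCC1419, MDA-MB-361, SK-BR-3 or ZR-75-30). The cause was not tested. The dependence on GC content was not run, because too few members had a promoter sequence and probe sequences were not used here.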
